A study of Drosophila melanogaster with 3 samples.

Results

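NK7.1 and its neighbours spn-B and Dnaaf5 are 3 of the 13945 protein-coding genes annotated on the 6 fly chromosome arms used here, and they were chosen by gene name. Every peak summit in these genes or within 2 kb of them was taken. This gave 7 summits of the authors' reproducible set, which holds the strongest 9.18% of the pooled peaks, and 19 of the 26951 summits called on the pooled libraries. The lists of replicates 1, 2 and 3 put 13 of 25801, 20 of 30000 and 20 of 30000 summits there.

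The data are ChIP-seq, in which chromatin is precipitated with an antibody and the DNA that comes with it is sequenced. The single group, of 3 biological replicates, was whole Drosophila melanogaster embryos of 0 to 24 hours, males and females together, of the transgenic strain NK7.1-GFP, which makes NK7.1 with green fluorescent protein (eGFP) at its C-terminus, and the antibody was against GFP. The sources used here state neither the insertion site of the transgene nor its promoter, and the signal is an average over all cell types and stages of the embryo. Peaks had been called against a control, and no untagged or input library was analysed here, so the values are compared between replicates and with the rest of each list and no test between groups was made.

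NK7.1 encodes a transcription factor of the NK class of homeodomain proteins, which bind short AT-rich DNA words and act in patterning and cell identity in the embryo. A factor's own gene is a common place to find its binding, since many developmental regulators act on their own transcription. Its neighbours have unrelated roles. The spn-B gene (spindle-B) encodes a protein that acts in the repair of meiotic DNA breaks in the female germ line. Dnaaf5 encodes a cytoplasmic factor, known in humans as DNAAF5 or HEATR2, that helps to assemble the dynein arms of motile cilia and flagella.

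The 3 genes interlock on chromosome arm 3R (dm6, Release 6 assembly, 1-based positions, Ensembl 115 annotation). NK7.1 (FBgn0024321) is a minus-strand gene of 43.5 kb at 14329413 to 14372951, with 4 annotated transcripts from 3 start sites. The outer start, of transcript RA, is at 14372951, the shared start of RC and RD lies 2943 bp inside it at 14370008, and that of RB lies a further 191 bp inside. Dnaaf5 (FBgn0288976, minus strand, 14358356 to 14361786) sits inside intron 1 of NK7.1-RA, which is 27.4 kb long. The spn-B gene (FBgn0003480, plus strand, 14328051 to 14329608) meets NK7.1 tail to tail, and the annotated ends overlap by 196 bp. The genes with their flanks span 48.9 kb, and this span also holds ATPsynE, which encodes a subunit of the mitochondrial ATP synthase, and the end of Afti, which encodes a protein of clathrin-mediated transport. The spn-B start lies 315 bp beyond the annotated end of ATPsynE.

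The sequences around 7 summits are shown because they are promoter-proximal and intronic places the results turn on. They are not the same as the 7 reproducible summits. The reproducible summit at 14369944 is left out, and the summit upstream of Dnaaf5 is outside the reproducible set. Each sequence has 101 bases of the plus strand read 5′ to 3′ from the RefSeq Release 6 genome, with the summit at position 51. NK7.1 and Dnaaf5 are transcribed from the minus strand, so for them the bases run against the direction of transcription. Capitals mark matches, on either strand, to 5 words searched in every window: the homeodomain cores TAATTG and TAATTA, the GAGA factor word GAGAG, the early-embryo word CAGGTA bound by Zelda, and the DREF word TATCGATA. TAATTA and TATCGATA read the same on both strands, and TAATTG on the minus strand appears as CAATTA.
upstream of the outer NK7.1 start, chr3R:14373331-14373431: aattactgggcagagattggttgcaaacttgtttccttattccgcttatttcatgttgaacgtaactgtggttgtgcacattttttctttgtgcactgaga
upstream of the inner NK7.1 start, chr3R:14370690-14370790: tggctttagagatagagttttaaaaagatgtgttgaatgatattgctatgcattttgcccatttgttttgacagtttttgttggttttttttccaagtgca
NK7.1 intron, chr3R:14356755-14356855: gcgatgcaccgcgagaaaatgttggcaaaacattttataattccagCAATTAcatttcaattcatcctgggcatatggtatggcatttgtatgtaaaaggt
NK7.1 intron, chr3R:14357599-14357699: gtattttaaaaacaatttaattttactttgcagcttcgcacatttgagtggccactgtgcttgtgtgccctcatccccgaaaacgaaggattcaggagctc
NK7.1 intron, chr3R:14351531-14351631: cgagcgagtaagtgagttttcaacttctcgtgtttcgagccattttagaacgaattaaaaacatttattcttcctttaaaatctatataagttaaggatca
upstream of spn-B, chr3R:14327834-14327934: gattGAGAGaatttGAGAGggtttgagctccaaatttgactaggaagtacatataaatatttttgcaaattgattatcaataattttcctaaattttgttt
upstream of Dnaaf5, chr3R:14361966-14362066: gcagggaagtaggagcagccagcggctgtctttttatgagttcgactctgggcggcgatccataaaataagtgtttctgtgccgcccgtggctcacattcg

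NK7.1 itself carried 7 reproducible summits, spn-B carried 1 and Dnaaf5 carried 2, but these were only 7 different peaks, because the spn-B peak and both Dnaaf5 peaks also fall within the NK7.1 window. Of the 13945 protein-coding genes, 3148 (22.6%) had at least 1 reproducible summit, 716 (5.13%) had at least 2 and 14 (0.100%) had at least 7. NK7.1 thus belonged to a small group of genes by count, 7 of which had more summits and 7 of which, itself included, had as many. The count fell to 3 in the stronger 50% of the set. It also fell to 3 when each summit was given to the gene of its nearest start. That rule gave 3 to Dnaaf5 as well and 1 to spn-B. The share of all genes that reach 3 under either rule is not given here. A count of at least 1, as at spn-B, was thus common (22.6%), whereas 5.13% of genes reached the 2 of Dnaaf5. A long gene collects more summits, and among the 274 protein-coding genes of similar length (34.9 to 54.3 kb) the median was 0 reproducible summits and 114 (41.6%) had any. In that class 2 genes (0.730%) had at least 7, namely NK7.1 and Raf, a kinase gene with 10 that is named here after its value was seen. In the pooled list NK7.1 had 18 summits against a median of 8 in the class, and 41 of the 274 had at least 18.

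**Figure D1:**
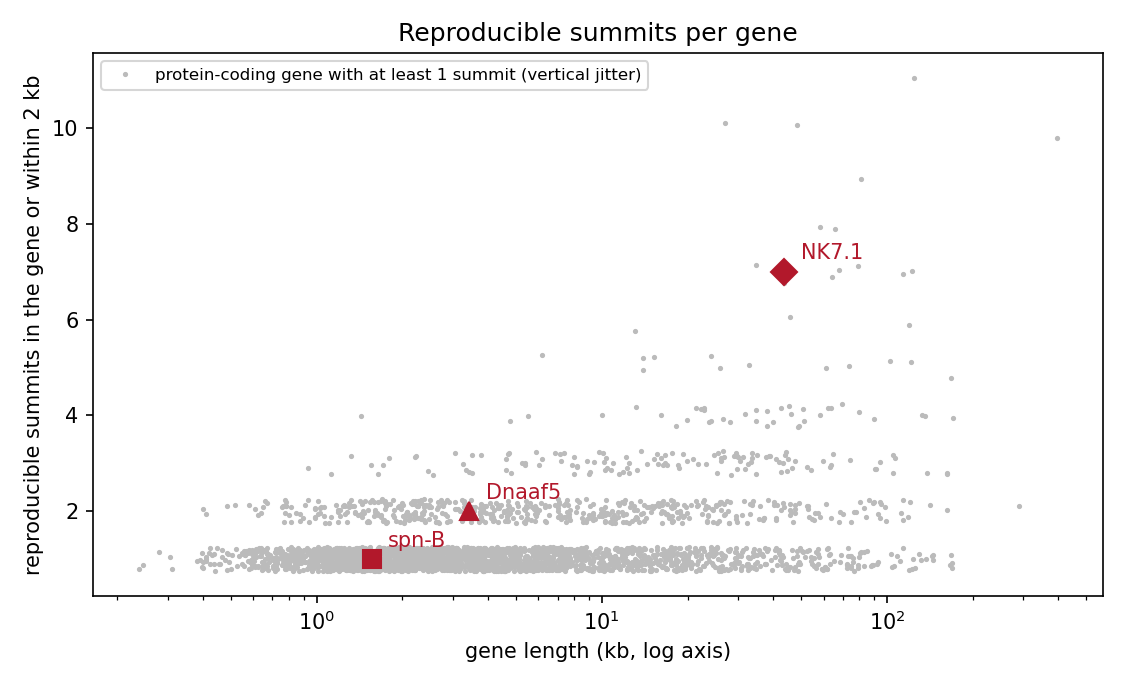
Reproducible summits in the gene or within 2 kb (vertical axis, points spread vertically for visibility) against gene length in kb (log axis) for the 3148 protein-coding genes with at least 1 summit, with NK7.1, Dnaaf5 and spn-B in red. NK7.1 stands at 7 summits among genes of similar length that mostly have fewer, whereas spn-B at 1 and Dnaaf5 at 2 lie in the dense bands of short genes.

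The same count was made with each replicate's own list, taking as many of its strongest peaks as the reproducible set holds, called its top peaks below. NK7.1 had 4, 5 and 6 summits in replicates 1, 2 and 3, a mean of 5 ± 1 (SD, n = 3). For spn-B the replicates gave 1, 2 and 1, and for Dnaaf5 1, 1 and 2, each a mean of 1.33 ± 0.577 (SD, n = 3). All replicates therefore placed several of their strongest peaks in the NK7.1 window, the peak upstream of spn-B among them. The counts at spn-B and Dnaaf5 differed by at most 1 peak between replicates. The share of all protein-coding genes that reach such counts in a replicate's own list is not given here.

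Other genes with 7 reproducible summits were longer, apart from tara. The 5 of them nearest to NK7.1 in length were tara, which encodes a nuclear SERTA-domain protein (34.7 kb), ush, the zinc-finger partner of GATA factors (64.3 kb), px, a gene of wing vein patterning (67.8 kb), sbb, which encodes a transcriptional corepressor (79.1 kb), and the ecdysone-induced nuclear receptor gene Eip75B (113.7 kb). Their own strongest peaks had pooled signals of 469, 1837, 1482, 335 and 404, all above the 321 of the strongest NK7.1 peak. In the replicates' own lists the 5 genes had means of 6 ± 1, 8.33 ± 0.577, 6 ± 2, 7.67 ± 0.577 and 6.67 ± 0.577 summits (SD, n = 3). The replicate counts of 4 to 6 at NK7.1 overlapped those of tara, px and Eip75B and lay below all those of ush and sbb. Among these genes NK7.1 was the shortest but for tara, and its strongest peak had the lowest signal.

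Along the locus the reproducible peaks fell into a group at the NK7.1 start sites, a group in the middle of its long intron and 1 peak at the far end. Signal values are the authors', in the units of their peak caller, and serve only to rank peaks within a list. The strongest, at chr3R:14373171-14373590, had its summit in intergenic sequence 430 bp upstream of the outer NK7.1 start and a pooled signal of 321, rank 215 of 26951. Its signals in replicates 1, 2 and 3 were 98.0, 98.5 and 133, at ranks 308, 201 and 157. In each replicate this was the strongest peak of the locus, and on average 99.2 ± 0.352% (SD, n = 3) of a replicate's peaks were weaker. The group at the starts was completed by chr3R:14370530-14370949 and chr3R:14369734-14370153. The former lay 732 bp upstream of the start shared by RC and RD, within intron 1 of RA, with a pooled signal of 163 (rank 879) and replicate signals of 58.8, 66.7 and 45.5 at ranks 897, 472 and 1486. In each replicate only the NK7.1 upstream peak and the spn-B peak ranked above it at the locus. The latter lay 64 bp downstream of that same start, in an untranslated exon of RC and RD, with a pooled signal of 96.7 (rank 2282) near the lowest signal of the reproducible set, 92.5. Its replicate signals were 29.1, 24.8 and 44.0 at ranks 3554, 3405 and 1579, so replicate 3 alone placed it high.

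**Figure D2:**
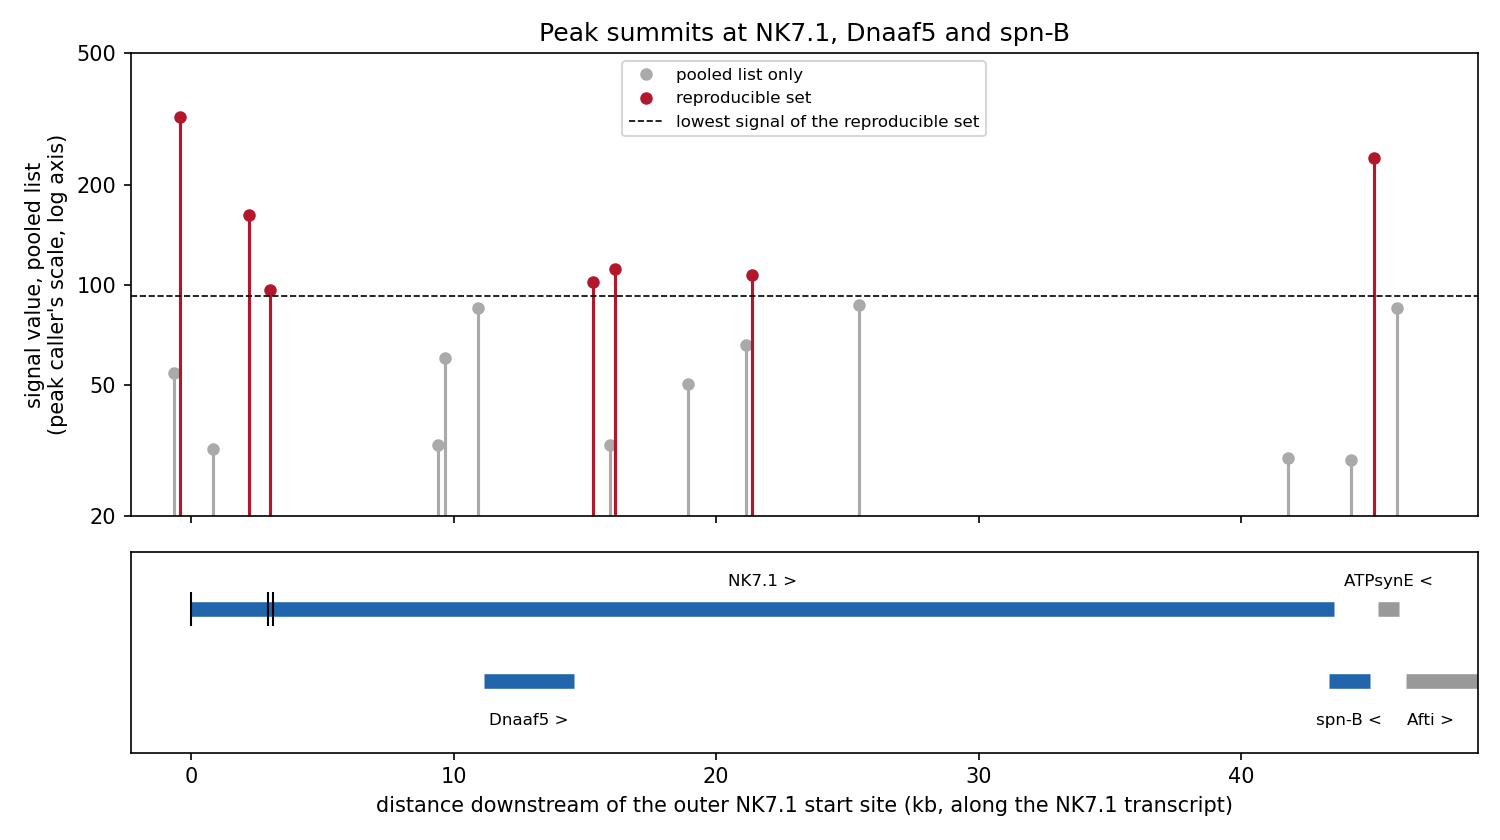
Signal value of each pooled peak (upper panel, log axis, peak caller's scale) at the position of its summit in kb downstream of the outer NK7.1 start, with gene bodies below (arrowheads give the direction of transcription, black ticks on NK7.1 its 3 start sites). Red stems are the 7 reproducible peaks and grey stems the 12 others. The tallest stems stand at the outer NK7.1 start (321) and, 45.5 kb away, upstream of spn-B (241), and no pooled summit lies in a stretch of 16.3 kb in the distal part of NK7.1.

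The spn-B peak was the second strongest of the locus in every list. It covered chr3R:14327674-14328093, and its summit lay 167 bp upstream of the spn-B start, in the intergenic stretch between ATPsynE and spn-B. The pooled signal was 241 (rank 390), and replicates 1, 2 and 3 gave 71.7, 81.6 and 85.4 at ranks 584, 312 and 400. Its signal was 0.735 ± 0.0920 (SD, n = 3) of that of the NK7.1 upstream peak in the same replicate, and 98.5 ± 0.639% of a replicate's peaks were weaker. By start site this peak belongs to spn-B rather than NK7.1, whose start sites lie at the other end of the locus. The other peaks within 2 kb of spn-B were outside the reproducible set. A peak with its summit in the ATPsynE transcript RC, 52 bp upstream of another ATPsynE start, had a pooled signal of 85.1 (rank 2857) and replicate ranks of 6328, 1079 and 7934, so only replicate 2 placed it among its top peaks. In the coding exon of spn-B a peak of signal 29.6 ranked 22489 in the pooled list, had no counterpart in replicate 1, and ranked 4489 and 8402 in replicates 2 and 3.

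The 2 reproducible peaks counted for Dnaaf5 were not at its start. Their summits, at 14357649 and 14356805, lay 4137 and 4981 bp downstream of the start of this 3431-bp gene, hence beyond its 3′ end and within the same intron of NK7.1. The Dnaaf5 start was still the nearest annotated start to both, as those of NK7.1 lie farther upstream. The pooled signals were 102 (rank 2077) and 112 (rank 1755). Replicates 1, 2 and 3 gave 37.5, 26.4 and 38.9 at ranks 2234, 2967 and 2085 for the nearer peak, and 28.2, 36.2 and 38.6 at ranks 3774, 1588 and 2126 for the farther one. Each was thus among the top peaks of 2 replicates and fell below in the other, replicate 2 for the nearer and replicate 1 for the farther. No pooled summit lay in the Dnaaf5 gene body. The peak at its promoter, 230 bp upstream of the Dnaaf5 start, fell just outside the reproducible set with a pooled signal of 85.2 (rank 2855). Its replicate signals were 29.0, 14.8 and 33.9 at ranks 3582, 12488 and 2778, and replicate 2 placed it far lower than the others did. The last of the 7 reproducible peaks, at chr3R:14351371-14351790, lay deeper in the intron, 21.4 kb from the outer NK7.1 start, with a pooled signal of 107 (rank 1916). Its signals of 31.2, 37.1 and 27.2, at ranks 3163, 1508 and 4477, put it high in replicate 2 only. At the edge of the set, the strongest peak left out had a signal of 86.8 (rank 2752), also lay in the intron, and was missing from replicate 1.

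The replicates agreed on the 3 strongest peaks and not on the order of the other 4. The peaks upstream of the outer NK7.1 start, upstream of spn-B and upstream of the inner NK7.1 start came in this order in each replicate, and each was overlapped by a top peak of all 3. Across the genome 1429 reproducible peaks (57.7% of the set) were, against 3 of 7 here. Of the other 4, 2 were overlapped by top peaks of 2 replicates and 2 by those of 1 replicate, and their ranks ran from 1508 to 4477. All 7 were overlapped by some peak in each full replicate list. The set was derived from these same libraries, so this overlap is no independent check. The summits of the 3 replicates lay within 43 to 106 bp of one another at these 7 peaks, against a median peak width of 420 bp.

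**Figure D3:**
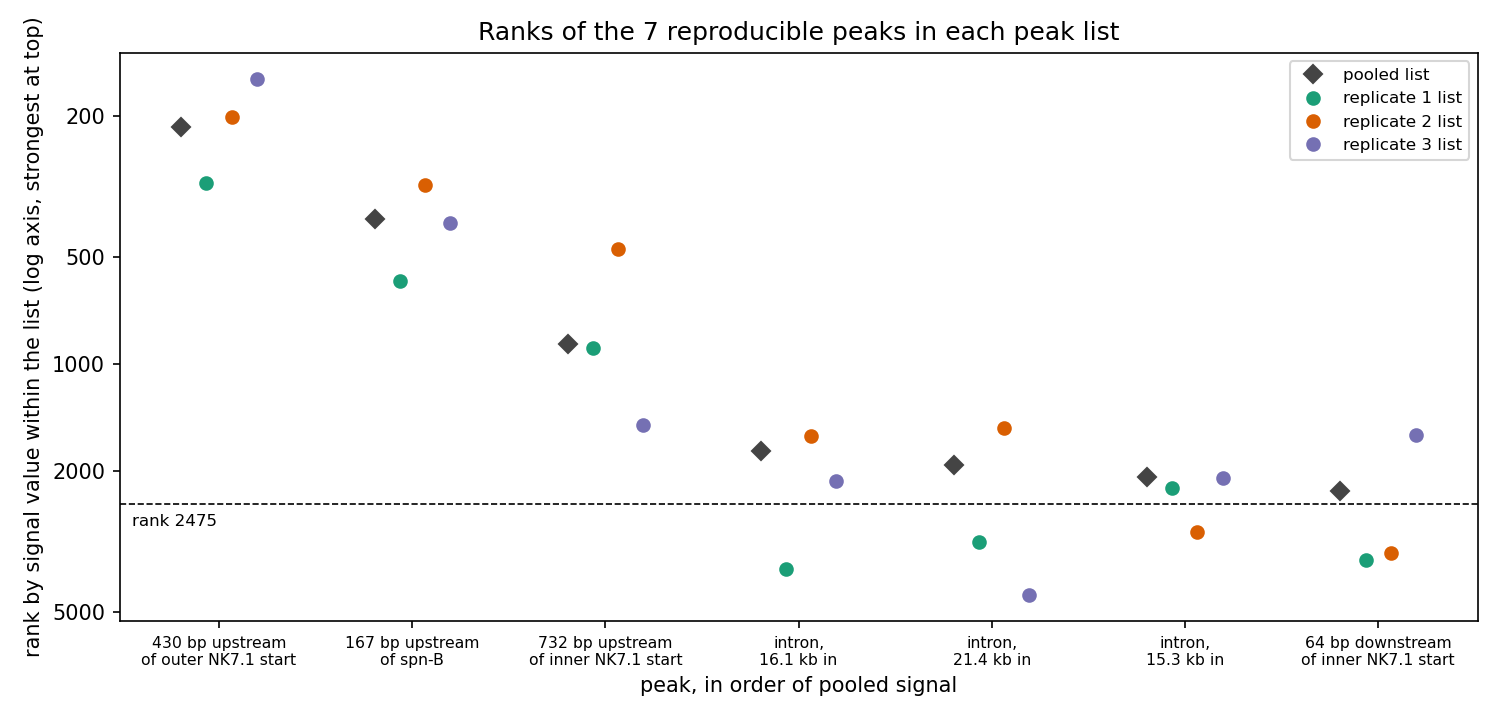
Rank by signal value (log axis, strongest at the top) of the 7 reproducible peaks in the pooled list (diamonds) and in each replicate list (circles), ordered by pooled signal, with a dashed line at the rank that equals the size of the reproducible set. The 3 leftmost peaks stay above the line in every list, and each of the other 4 falls below it in at least 1 replicate.

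**Figure D4:**
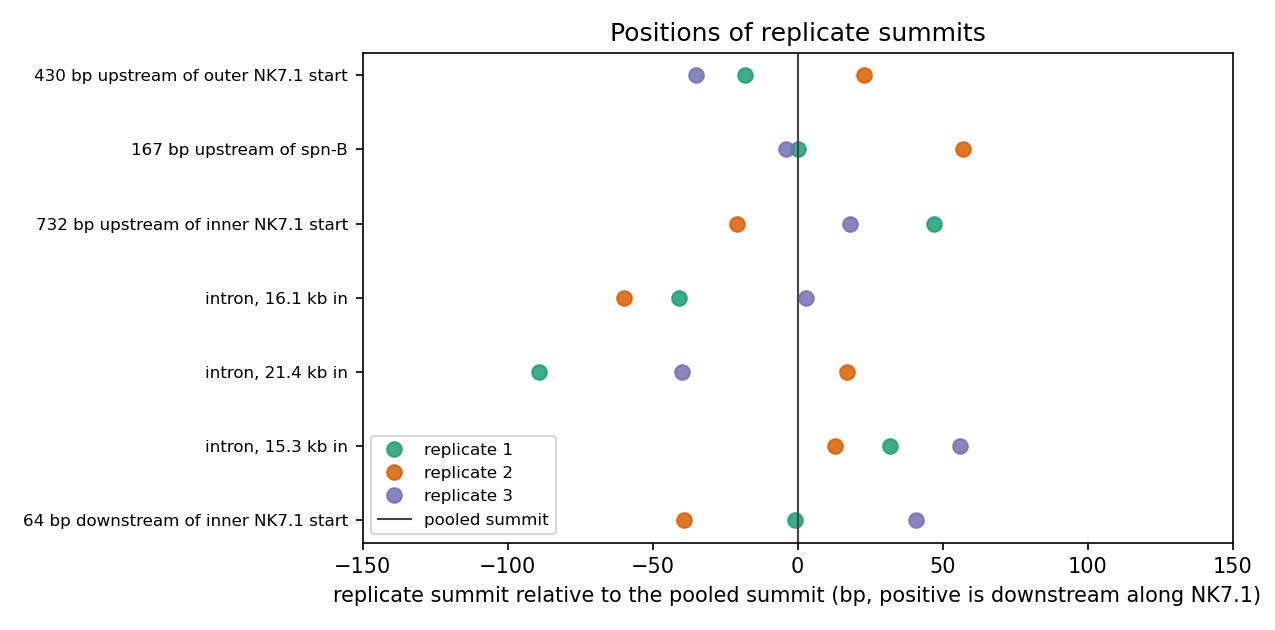
Position of each replicate's summit relative to the pooled summit (bp, positive values downstream along NK7.1) for the 7 reproducible peaks. The points of a peak span from 43 bp to 106 bp, with no replicate displaced in the same direction at all of them.

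Of the 7 reproducible summits 4 lay within 1 kb of an annotated start site, against 1623 (65.6%) of the whole set. These were the 3 at the NK7.1 starts and the 1 at spn-B, and the other 3 were intronic. Among the 12 peaks outside the set, with pooled signals of 29.6 to 86.8, 4 overlapped a stronger pooled peak and share its replicate peak, and of the other 8, 4 were overlapped in all 3 replicates. Peaks of a single replicate that met no pooled peak numbered 1, 4 and 3 in replicates 1, 2 and 3, and the best of these ranked 22305, 9196 and 16653.

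Pooled and reproducible peaks were denser here than in the 100 kb on either side, whereas the replicate lists varied. The pooled list had 3.89 summits per 10 kb in the 48.9-kb span, against 2.4 and 2.6 in the left and right flanks and 2.06 over the arm. For reproducible summits the density was 1.43 per 10 kb, against 0.3 and 0.1 in those flanks and 0.185 over the arm. In replicates 1, 2 and 3 it was 2.66, 4.09 and 4.09, against arm means of 2.01, 2.29 and 2.32. The left and right flanks had 2.7 and 1.9 in replicate 1, 3 and 2.8 in replicate 2, and 3.1 and 4.5 in replicate 3. The locus was thus denser than both flanks in replicate 2 only, and denser than the arm in each replicate. In the successive 10-kb bins of the arm that the span touches, from the spn-B end to the NK7.1 starts, the pooled list held 3, 1, 1, 6, 4 and 4 summits. Bins of the arm had a median of 1, a 90th percentile of 5 and a maximum of 12. Summits stood at both ends of the locus and in the long intron, 4 of them in the 5.56-kb spn-B window, and the 16.3 kb between 14331179 and 14347525 held no pooled summit. Whether the transgene carries a further copy of this region is not stated in any source used here, and more DNA and more binding cannot be told apart in these lists.

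The share of reproducible summits with a homeodomain core was near that of the whole set. Within 50 bp, 1 of the 7 reproducible summits held TAATTG or TAATTA, against 388 (15.7%) of the whole set. Among the 12 other pooled summits of the locus 4 held one, next to 12.4% of all pooled summits outside the set. The reproducible summit with a core was the intronic peak with its summit at 14356805, where TAATTG on the minus strand spans the summit, from 4 bases before it to 1 after. From the other summits the nearest core was 73, 97, 112, 153, 471 and 614 bp away, and the strongest peaks at NK7.1 and spn-B had the farthest ones. GAGAG occurred at 2 of the 7, as a pair of copies 46 and 36 bases before the spn-B summit and across the summit in the untranslated NK7.1 exon. At 4 of the 7 summits none of the 5 words was found, among them both peaks upstream of NK7.1 starts. Such a lack says only that these letters are not in this window. Genome-wide, TAATTG was found at 9.49% of reproducible summits and in 9.43% of windows 500 bp to either side, TAATTA at 6.95% and 6.08%, GAGAG at 11.8% and 15%, CAGGTA at 2.18% and 2.46%, and TATCGATA at 1.78% and 0.343%. Among the summit windows of the locus, the only TATCGATA was at the ATPsynE peak, from 34 to 41 bases after its summit. The GC content of the 7 windows had a median of 37.6% (26.7 to 49.5%), near the 35.6% of all reproducible summits, and the lowest value was that of the spn-B peak.

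The cores were frequent over most of the locus, a count added after the data were seen. The 48.9-kb span held 183 of them, 103 TAATTG and 80 TAATTA, which is 3.74 per kb against 1.80 per kb on arm 3R. Of 656 consecutive stretches of the arm with the same length, 1 (0.152%) reached this density. That stretch, at 3.84 per kb, is the locus again, since it overlaps the span by 47.0 kb, and the next highest had 2.97. The cores were unevenly spread, few at the spn-B end and absent from the middle of Dnaaf5. From the spn-B end, which also holds ATPsynE, the first 1-kb bins held 2, 1, 0 and 1. The bins wholly inside Dnaaf5 held 0 and 0, and those across its 3′ end and its start held 6 and 2. Bins elsewhere in NK7.1 held 0 to 9. The GC content of the span, 40.8%, was below the 42.6% median of the stretches, and 24.4% of them had no more. The stretch of NK7.1 with no pooled summit held 4.16 cores per kb and the remainder 3.53, while the 7 reproducible peaks held 7 cores in 2.94 kb, or 2.38 per kb. Within the locus the stretch without pooled summits thus held more cores per kb than the reproducible peaks did. Replicate 2 did have summits in that stretch, the last of them from the spn-B end at 14335224.

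**Figure D5:**
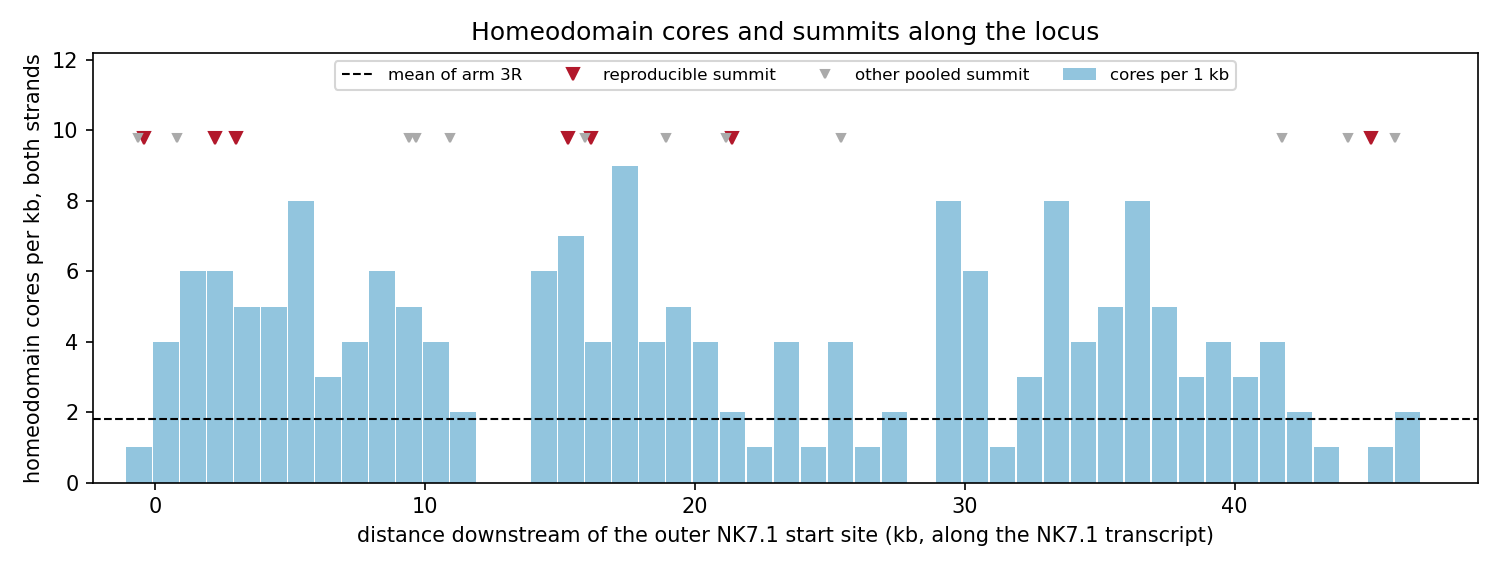
Number of TAATTG and TAATTA words, on either strand, in each 1-kb bin of the locus (bars), with the mean of arm 3R (dashed line, 1.80 per kb) and the summits of the reproducible set (red) and of the other pooled peaks (grey) above. Most bins lie above the arm mean, including bins with no pooled summit between 25 and 42 kb.

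Genes that share the role of each member were looked up to set its peak among them. Of 29 genes of meiotic recombination and DNA break repair, 7 (24.1%) had at least 1 reproducible summit by the same count, next to 22.6% of all protein-coding genes, and the median was 0 as for all genes. Taking the strongest peak of each of these 7, spn-B had the highest pooled signal and alone had its own start as the nearest one. For hdm, a partner of the Mei-9 endonuclease, the peak (137) lay 113 bp upstream of Ykt6 and 165 bp upstream of hdm. The stronger of 2 peaks counted for Ercc1, the partner of Mei-9 in DNA cleavage (183), and the peak of the repair gene okr (146) lay 38 bp and 64 bp upstream of HPS1 and Bem46. That of c(3)G, which encodes the transverse filament of the synaptonemal complex (101), lay in an intron of nsl1.

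Of 23 genes of dynein arms and their assembly, 7 (30.4%) had a reproducible summit, next to 22.6% of all protein-coding genes, again with a median of 0. Besides Dnaaf5, the peaks were those of the chaperone ATPase genes pont (225) and rept (101), the dynein chain genes Dnai2 (204) and Dhc36C (147), and the assembly factor genes Zmynd10 (161) and Nop17l (95). Among these 6 only rept had its own start as the nearest one, 107 bp from the summit. This rept peak ranked 3180, 2725 and 2699 in replicates 1, 2 and 3, outside the top peaks of each. Those of pont, Dnai2, Zmynd10 and Dhc36C were overlapped by top peaks of all 3 replicates, and that of Nop17l by those of 1. The peaks of pont, Dnai2, Zmynd10 and Nop17l were nearest to Nuak, Dph1, RpS12 and sax, at 82, 105, 10 and 120 bp, and that of Dhc36C lay in its own intron. At 2 of the 6 genes, rept and Nop17l, the summit lay within 1 kb of the gene's own start, and at Dnaaf5 neither did. Of 19 NK family homeobox genes NK7.1 alone (5.26%) had a reproducible summit, next to 22.6% of all protein-coding genes, whereas 18 of 19 (94.7%) had a pooled one, next to 79.8%.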

How the data were processed

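ChIP-seq of embryos of the strain NK7.1-GFP was analysed from narrowPeak lists on dm6 deposited for 3 replicates, for the pooled alignments, and for a set thresholded by the irreproducible discovery rate (IDR), which compares the ranks of peaks between replicates. This last list is called the reproducible set, and it holds exactly the strongest 9.18% of the pooled peaks. Peaks were called against a control, per the deposited text listings. Neither the aligner nor the caller is named in the sources used here. The authors' deposited signal value has the caller's own scale, and its scaling for depth is not stated. The deposited −log10 q-value was capped, and 51.6% of the reproducible peaks are at the cap, so the signal ranked the peaks. The lists hold no read counts, so depth is unknown and no interval for counting error was given.

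From these files, summits (peak start plus offset) were counted in each gene and 2 kb on either side, using the Ensembl 115 gene models. The coordinates of NK7.1, spn-B and Dnaaf5 matched the RefSeq Release 6 annotation, and those of other genes were not compared. A replicate supported a peak when 1 of its top peaks, as many as the set holds, overlapped it by at least 1 bp. Words were searched within 50 bp of summits. SDs are over the 3 replicates. Which collections the replicates came from is not given, so the spread may be partly technical. Scripts were tested on simulated peaks. The dm3 lists were not used, since no dm3 annotation was at hand.

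Genes named are the members, other genes in the span or nearest a reproducible summit of it, the 5 genes with as many summits and the nearest length, and members of 3 gene lists with a reproducible summit. The members and lists were chosen with earlier results of these data known. Some members of the recombination list are not reported here by name. Unmatched list names were left out, 1 of 30 in the recombination list and 3 of 26 in the dynein list. The alternatives were flanks, thresholds, overlaps, word windows and each replicate left out. Python 3.11.15, NumPy 2.4.6, pandas 2.3.3 and Matplotlib 3.10.9 were used.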

Additional observations from a re-analysis of the deposited data

How the results depend on the processing

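The count of 7 reproducible summits at NK7.1 became 3 in the stronger 50% of the set and 10 with 2 times as many pooled peaks. It was also 3 when each summit went to its nearest start, an alternative chosen after seeing the data. It was 4.5 to 5.5 as a mean over the replicates' own lists with 1 replicate left out, the lowest without replicate 3. The single spn-B summit became 0 in the gene body alone and 2 with 2 times as many pooled peaks, and left-out replicates gave 1 to 1.5. For Dnaaf5, 2 became 1 with a 1-kb flank, 0 in the gene body alone and 0 in the stronger 50% of the set. It became 3 with 2 times as many pooled peaks, and also 3 when each summit went to its nearest start. Left-out replicates gave 1 to 1.5 at Dnaaf5, the lowest without replicate 3. Support by all replicates rose from 3 of 7 to 7 of 7 with 2 times as many top peaks (86.1% of the whole set) and to 7 with the full lists (99.3%). With 1 replicate left out it was 3 to 4 of 7, next to 66.3 to 67.0% of the whole set. Summits with a homeodomain core rose from 1 to 2 with windows of 100 bp (28.9% of the whole set). A core was counted only when the whole word lay in the window, so the one 97 bp away was not. More peaks, fewer peaks or wider windows change these counts by construction. The percentiles of the NK7.1 and spn-B upstream peaks moved by less than the spread between replicates under all 5 alternatives each.

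Limits: a single group with no control library in the comparison, unknown depth, and signal values with no stated scaling. Whole embryos average over cell types. The GFP antibody was used in one tagged line, and the copy number of the locus in it is not given. All lists come from the same 3 libraries. The replicate and pooled lists extend to weak peaks that need not be binding sites. Summits were tied to genes by position, and no expression data were used.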

Other observations

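The high density of the homeodomain cores at the NK7.1 locus was set beside that of other words after it had been seen. The letters of TAATTG and TAATTA can be arranged into 74 different words when each is counted with its reverse complement. TAATTA, at 2.22 times its frequency on arm 3R, and TAATTG, at 1.97 times, had the highest ratios among them. The other 72 words, of the same base composition, had a median ratio of 1.12 and a range of 0.779 to 1.67. Overlapping words share bases and are not independent, no test was made, and whether NK7.1 prefers these words was not tested.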
